A study of Mus musculus with 12 samples.

Results

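The genes described here are 8 members of the BCL2 family and the caspases on the nCounter Mouse PanCancer IO360 panel: Bcl2, Bcl2l1, Bax, Bad, Bid, Bbc3, Casp8 and Casp9. They were taken by name from the deposited raw counts, and all 8 were found among the 750 endogenous probes. The panel counts barcodes bound to chosen transcripts in bulk RNA, here from pieces of mammary tumour of MMTV-PyMT mice, in which the mouse mammary tumour virus promoter drives the polyoma middle T oncogene. Every group carried the label PTX: 2 libraries had PTX alone, 2 had PLX+PTX, 6 had PLX+PTX+aPD-1 (3 titled with R and 3 with NR), and 2 had PLX+PTX+aPD-L1. There was no untreated group. The series title speaks of inhibition of the receptor CSF1R with chemotherapy, and aPD-1 and aPD-L1 stand for antibodies to PD-1 and to its ligand. What R and NR stand for is not given in the labels, nor is an age, dose or time. Below, R and NR name those groups, and the aPD-L1 group is the one that received PLX+PTX+aPD-L1.

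The BCL2 family governs the mitochondrial, or intrinsic, route to apoptosis. Bcl2 and Bcl2l1 (which encodes BCL-XL) hold back the pore former Bax, while the BH3-only proteins Bad, Bid and Bbc3 (PUMA) act against the protective members. Casp9 is the initiator caspase of the mitochondrial route and Casp8 that of the death receptor route, and cleavage of Bid by caspase-8 joins the routes.

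Endogenous totals ran from 98741 to 531086 counts, and 3 libraries stood apart with totals of 98741 to 141021: R replicate 2 and both aPD-L1 libraries. Counts were divided by a factor from the 20 housekeeping probes of the library, and the quotient is called a normalised count. Scaling multiplies the background too, so the low-signal libraries have the higher scaled background. Epcam, which marks epithelium, was above the detection limit in 12 of 12 libraries at 5049 to 8314 normalised counts. Of 13 T cell markers on the panel, 7 were above the limit in no library. In bulk tumour RNA, fewer cells of a type and less RNA per cell cannot be told apart. Probes differ in capture efficiency, so levels are compared between libraries and never between genes.

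Of the 8 genes, 7 were above the detection limit in 12 of 12 libraries, and Bbc3 was above it in 0 of 12. None of the 7 tested genes passed an adjusted p under 0.05 in any of 8 comparisons (edgeR). Of all 615 tested probes, 0% to 5.69% passed, depending on the comparison. The groups overlapped in most of the 56 combinations of gene and comparison. Over all tested probes, 9.92% to 46.7% did not overlap, depending on the comparison. The libraries of a group were often further apart than the group means. Between libraries, on the housekeeping scale, a pattern was seen: where Bcl2l1 was high, Casp9 was high and Bid was low, in every treatment group for Bid.

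The windows shown are the 250 bases before the start of 4 of the genes whose levels moved together or in opposition across libraries, from RefSeq on GRCm38.p6. They are Bcl2l1 (chr2:152831729-152831978, minus strand, the most upstream of 3 annotated windows), Casp9 (chr4:141793362-141793611, plus strand), Bid (chr6:120916825-120917074, minus strand) and Casp8 (chr1:58802252-58802501, plus strand). Each is written 5′ to 3′ on the strand of the gene. Capitals mark matches to the GC box in the Casp9 and Bid windows and to the CCAAT box in the Casp8 window.
Bcl2l1: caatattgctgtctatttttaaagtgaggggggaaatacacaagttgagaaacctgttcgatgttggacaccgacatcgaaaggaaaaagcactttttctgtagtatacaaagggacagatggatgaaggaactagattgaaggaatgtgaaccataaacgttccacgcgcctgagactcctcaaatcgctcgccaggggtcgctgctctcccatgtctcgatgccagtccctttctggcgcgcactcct
Casp9: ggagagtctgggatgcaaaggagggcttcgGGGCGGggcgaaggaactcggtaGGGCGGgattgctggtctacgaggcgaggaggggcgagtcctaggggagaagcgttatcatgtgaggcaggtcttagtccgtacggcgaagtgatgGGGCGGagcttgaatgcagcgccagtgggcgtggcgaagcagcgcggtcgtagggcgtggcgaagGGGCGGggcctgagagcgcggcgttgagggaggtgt
Bid: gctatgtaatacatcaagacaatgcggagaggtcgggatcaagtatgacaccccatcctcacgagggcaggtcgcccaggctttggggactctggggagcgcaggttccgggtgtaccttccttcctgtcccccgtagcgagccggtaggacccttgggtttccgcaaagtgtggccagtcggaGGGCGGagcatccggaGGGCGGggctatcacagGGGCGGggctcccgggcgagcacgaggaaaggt
Casp8: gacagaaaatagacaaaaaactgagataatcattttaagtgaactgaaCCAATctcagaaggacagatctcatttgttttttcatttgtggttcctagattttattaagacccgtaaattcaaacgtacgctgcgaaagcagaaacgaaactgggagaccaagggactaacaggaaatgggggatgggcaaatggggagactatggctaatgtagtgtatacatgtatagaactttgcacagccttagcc
Both strands were searched for the GC box GGGCGG, the CCAAT box CCAAT, the TATA box TATAAA, the NF-kappaB consensus and the p53 half-site consensus, and a match to one may overlap a match to another. The Casp9 window held 4 GC boxes, the Bid window 3, and the Casp8 window 1 CCAAT box, while the Bcl2l1 window held no match to the 5 motifs. The second Bcl2l1 window held 1 match to the NF-kappaB consensus, and the Bax window held 2 GC boxes and 1 p53 half-site. Among 32851 windows of the same length, 32.7% held a GC box, 33.8% a CCAAT box, 12.4% a TATA box, 7.25% the NF-kappaB consensus and 7.13% the p53 half-site. The GC content of these windows was 66.0% for Casp9, 63.6% for Bid, 47.6% for Bcl2l1 and 39.6% for Casp8. These matches describe the letters of the windows only.

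Bcl2 is the founding protective member. Its normalised counts were 158 and 212 in PTX, 208 and 146 in PLX+PTX, 135, 156 and 112 in R, 103, 188 and 162 in NR, and 122 and 231 in the aPD-L1 group. The lowest library (NR replicate 1) and the highest (aPD-L1 replicate 2) differed 2.24-fold. The 3 R libraries lay below both PTX libraries, by a small margin (156 against 158 at the nearest), and every other pair of groups overlapped. The share of all probes that separate R from PTX was not worked out. Of all tested probes, 15.6% did not overlap in R against PLX+PTX and 21.1% in NR against PLX+PTX, which also set 3 libraries against 2. Group means ran in the order R (134 ± 21.6, SD, n = 3), NR (151 ± 43.4, n = 3), the aPD-L1 group (177 ± 77.1, n = 2), PLX+PTX (177 ± 43.6, n = 2) and PTX (185 ± 38.3, n = 2). No neighbours in this order differed beyond their spread. Of the 8 comparisons fitted, which do not include R against PTX, the largest difference was R against PLX+PTX, a log2 fold change of -0.40 (SE 0.35, 95% interval -1.17 to 0.37, adjusted p = 0.979 by edgeR's quasi-likelihood test).

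Bcl2l1 had the widest range of the 7 detected genes, and 1 library set much of it. Its normalised counts were 841 and 597 in PTX, 694 and 479 in PLX+PTX, 527, 1393 and 442 in R, 541, 762 and 474 in NR, and 544 and 832 in the aPD-L1 group. R replicate 2, a library of low signal, stood far above the other R libraries, which lay among the lower values of the series. The range over 12 libraries was 3.15-fold, and 1.90-fold without R replicate 2. The R mean was 787 ± 526 (SD, n = 3) and the NR mean 592 ± 151 (n = 3). The log2 fold change of R against NR was 0.41 (SE 0.41, adjusted p = 0.939, edgeR), and it was -0.29 without R replicate 2. R against PLX+PTX gave 0.42 (SE 0.46, adjusted p = 0.979, edgeR), and -0.27 without that library. The sign of both differences thus rested on R replicate 2.

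Bax, the pore former, had values of 396 and 467 in PTX, 539 and 546 in PLX+PTX, 585, 327 and 564 in R, 483, 404 and 455 in NR, and 473 and 520.1 normalised counts in the aPD-L1 group. Both PLX+PTX libraries lay above both PTX libraries, above the 3 NR libraries and above both aPD-L1 libraries. Of all tested probes, 35.1%, 21.1% and 44.4% did not overlap in these comparisons. In the deposited log2 values, Bax in NR and in the aPD-L1 group was above PLX+PTX by 0.03 and 0.04. R replicate 2 held the lowest Bax value and the other R libraries the highest. The PLX+PTX mean was 543 ± 4.64 (SD, n = 2) and the PTX mean 431 ± 50.1 (n = 2), a log2 fold change of 0.33 (SE 0.30, 95% interval -0.32 to 0.98, adjusted p = 0.996, edgeR). Against PLX+PTX, NR gave -0.28 (SE 0.27, adjusted p = 0.947, edgeR).

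Bad, a BH3-only protein that binds the protective members, was the steadiest of the 8 genes. Its normalised counts were 282 and 292 in PTX, 311 and 313 in PLX+PTX, 322, 279.7 and 293 in R, 288, 256 and 302 in NR, and 227 and 274 in the aPD-L1 group. The SD of its log2 values over 12 libraries was 0.14, and 0.912% of the 329 probes above the limit in every library had a smaller one. The median SD of those probes was 0.37. Both aPD-L1 libraries lay below every PTX and PLX+PTX library, where 46.7% and 44.4% of all tested probes did not overlap. The difference from PLX+PTX was -0.32 on the log2 scale (SE 0.24, 95% interval -0.85 to 0.21, adjusted p = 0.544, edgeR).

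Bid, the BH3-only substrate of caspase-8, showed the widest gap between group means of the detected genes. Its normalised counts were 264 and 335 in PTX, 308 and 363 in PLX+PTX, 451, 225 and 536 in R, 369, 275 and 552 in NR, and 288 and 202 in the aPD-L1 group. R replicate 3 and NR replicate 3 reached the highest values, while R replicate 2 and NR replicate 2 lay among the lowest, so R and NR each spanned most of the range. The mean of the aPD-L1 group was 245 ± 60.6 (SD, n = 2), and those of R and NR were 404 ± 161 (n = 3) and 398 ± 141 (n = 3). The aPD-L1 group against R and NR averaged gave the smallest p-value of any tested member, a log2 fold change of -0.71 (SE 0.36, 95% interval -1.50 to 0.08, unadjusted p = 0.0753, adjusted p = 0.328, edgeR). The groups overlapped. That difference ran from -0.99 to -0.37 over 21 alternative settings, and both aPD-L1 libraries were of low signal.

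Bbc3, a BH3-only gene known as a target of p53, could not be told from background. Its raw counts were 9 to 21. Normalised counts were 10.0 and 15.5 in PTX, 15.2 and 8.71 in PLX+PTX, 14.9, 17.7 and 12.5 in R, 11.8, 11.8 and 9.75 in NR, and 25.2 and 31.8 in the aPD-L1 group. The last 2 lay above all others, and the scaled mean of the negative-control probes was also high there, at 21.9 and 32.5 against 9.32 to 23.9 in the other libraries. Bbc3 was above that mean in 3 of 12 libraries, and the difference from it ran from -6.97 to 3.32 normalised counts. The correlation of Bbc3 with the scaled negative controls on the log2 scale was r = 0.87 over 12 libraries, which share the scale factor. Bbc3 did not reach the count needed for the test. In a fit of all 750 probes without that filter, its smallest adjusted p was 0.0525 (edgeR, the aPD-L1 group against R and NR averaged). No fold is given, since both sides were at background, and the Bbc3 transcript was not detectable at this depth.

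**Figure D1:**
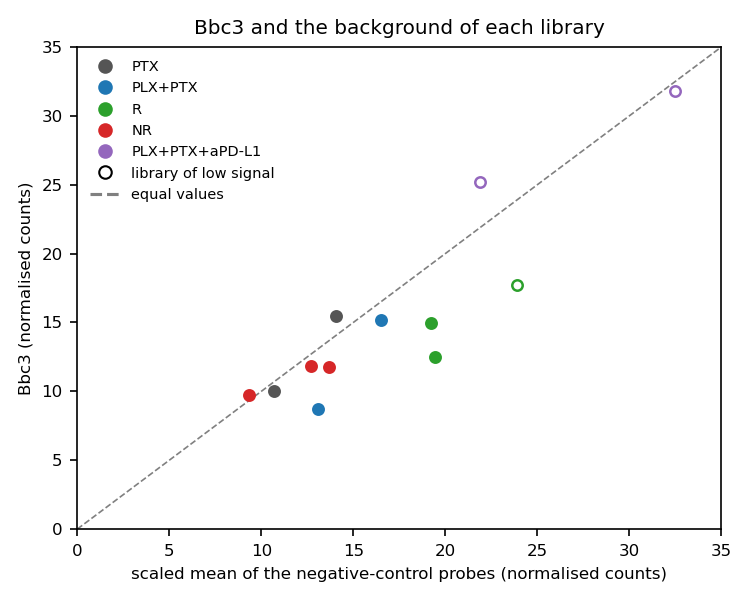
Bbc3 (vertical axis) against the scaled mean of the negative-control probes (horizontal axis), both in normalised counts, for the 12 libraries; the dashed line marks equal values and open points are low-signal libraries. The aPD-L1 libraries have the 2 highest Bbc3 values, and 3 of 12 points lie above the line.

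**Figure D2:**
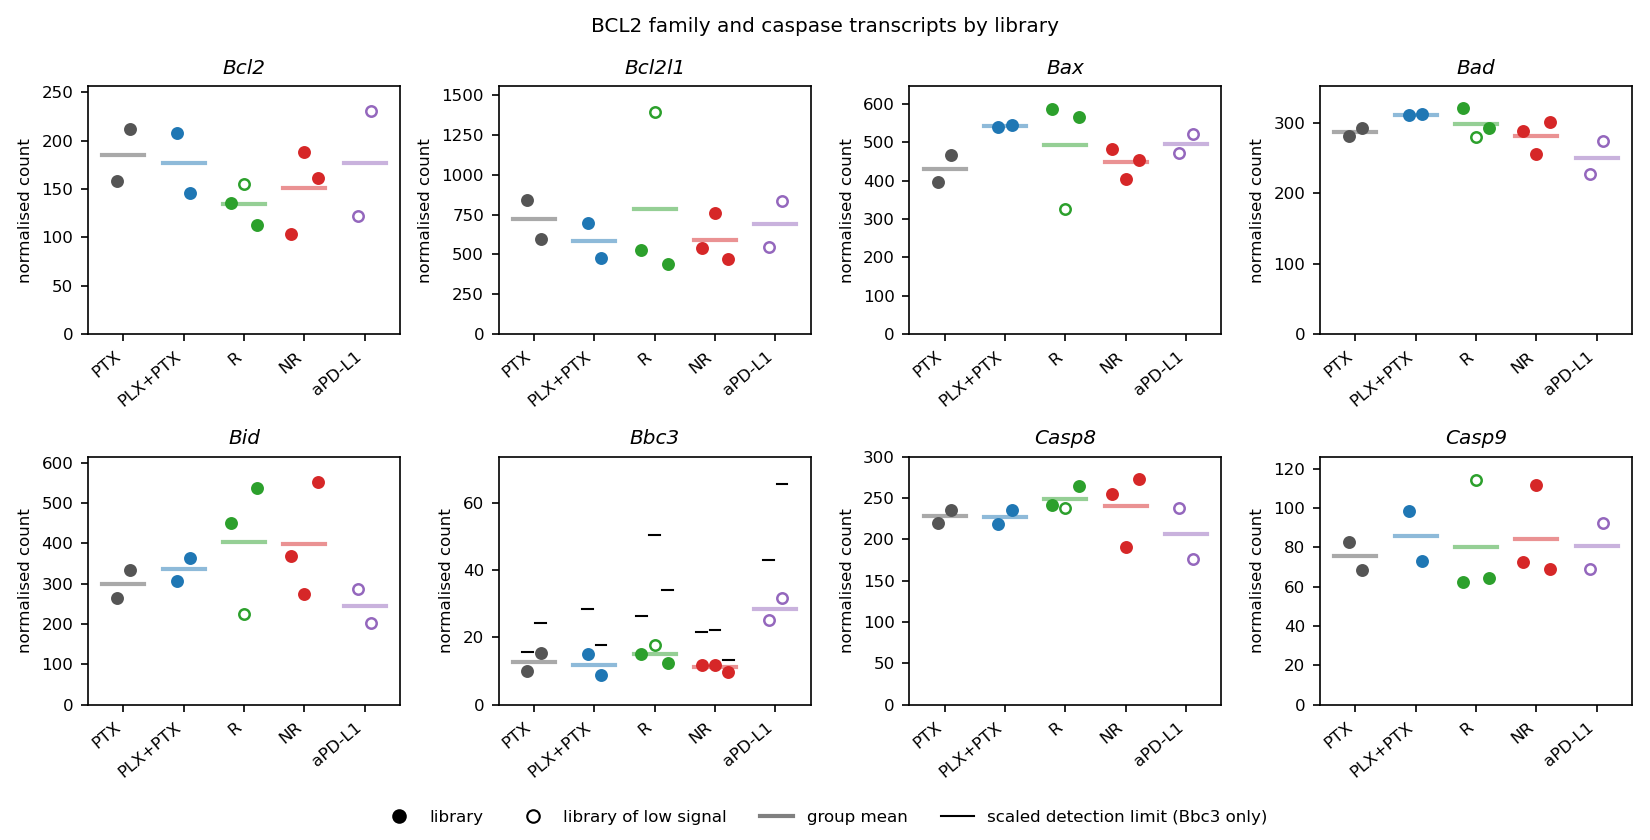
Normalised counts (vertical axes, from 0) of the 8 genes in each of the 12 libraries, by group; points are libraries, bars are group means, open points are the 3 low-signal libraries, and aPD-L1 stands for PLX+PTX+aPD-L1. R replicate 2 stands apart for Bcl2l1 at 1393, and every Bbc3 point lies under its black detection limit.

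Casp8, the initiator caspase of death receptors, was nearly level. Its normalised counts were 219.6 and 236 in PTX, 218 and 236 in PLX+PTX, 242, 238 and 264 in R, 255, 191 and 273 in NR, and 238 and 176 in the aPD-L1 group. The SD of its log2 values was 0.18, and 3.34% of the 329 detected probes had a smaller one. The 3 R libraries lay above both PLX+PTX libraries by a small margin, where 15.6% of all tested probes did not overlap. The log2 fold change was 0.13 (SE 0.25, 95% interval -0.41 to 0.67, adjusted p = 0.979, edgeR).

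Casp9, the initiator caspase of the mitochondrial route, was 82.8 and 68.5 in PTX, 98.7 and 73.1 in PLX+PTX, 62.4, 114 and 64.4 in R, 72.7, 112 and 69.0 in NR, and 69.0 and 92.5 normalised counts in the aPD-L1 group. R and NR each held 1 high library (114 and 112) and 2 lower ones. In a group of 2 libraries 1 is higher by necessity. Group means were nearly equal, from 75.7 ± 10.2 in PTX (SD, n = 2) to 85.9 ± 18.1 in PLX+PTX (n = 2). These values include background, whose scaled mean was 21.9 and 32.5 in the aPD-L1 libraries. With it subtracted, Casp9 was 47.1 and 60.0 there and 72.1 and 54.4 in PTX. The log2 fold change of the aPD-L1 group against PTX then turned from 0.08 to -0.24. Casp9 gave the largest adjusted p of the 7 genes in the test of any difference among the 5 groups (0.994, edgeR).

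Over the 8 comparisons the 7 tested genes gave 56 log2 fold changes, and the 95% interval of every one held 0. None passed at an adjusted p under 0.05, and none had an unadjusted p under 0.05. In the test of any difference, the members' adjusted p ran from 0.744 (Bid) to 0.994 (edgeR), against 2.93% of the 615 tested probes called and 14.1% at an unadjusted p under 0.05. Intervals were wide for Bcl2l1, where R against PLX+PTX allowed anything from 0.667-fold to 2.69-fold. They were narrower for Bad, where the mean of R and NR against PTX lay between -0.41 and 0.44 on the log2 scale. A p that misses the threshold does not show that the groups were alike. Whether libraries of a group are from different animals is stated in no label, so the p-values reflect spread among these libraries that may be technical.

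PLX+PTX against PTX asks what adding PLX changed. It called 0 members, where 0% of all tested probes were called and 1.95% had an unadjusted p under 0.05. Bax and Bad did not overlap between the groups and were higher in PLX+PTX, where 35.1% of all probes did not overlap; Bad was lower there in the deposited log2 values. The median log2 fold change was 0.12 over the members and 0.03 over all probes.

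R against NR called 0 members, against 0% of all probes and 6.83% at an unadjusted p under 0.05. None of the 7 separated the groups, while 13.7% of all probes did. The members' median was 0.05 and that of all probes 0.11. R against PLX+PTX also called 0 members, against 0% of probes and 2.44% unadjusted. Casp8 alone did not overlap, where 15.6% of probes did not. NR against PLX+PTX called 0 members, against 0% of probes and 3.74% unadjusted. Bax and Bad did not overlap and were lower in NR, where 21.1% of probes did not overlap, but Bad was higher under TMM, DESeq2 size factors and the deposited log2 values, and Bax in the last. The median was -0.06 over the members and -0.07 over all probes for R, and -0.02 and -0.18 for NR.

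The aPD-L1 group against PLX+PTX called 0 members, where 2.28% of all probes were called and 16.1% had an unadjusted p under 0.05. Bax, Bad and Bid did not overlap and were lower, where 44.4% of probes did not overlap, though Bax was higher in the deposited log2 values. The members' median was -0.13 and that of all probes -0.02. Set against R and NR averaged, it called 0 members, where 5.69% of probes were called and 17.9% passed unadjusted. No member separated these groups, while 16.3% of probes did, and the medians were -0.03 and 0.10. Against PTX, the aPD-L1 group called 0 members, where 3.25% of probes were called and 17.7% passed unadjusted. Bax was wholly higher and Bad wholly lower there, and 46.7% of probes did not overlap, with medians of -0.08 and 0.00. In all 3 comparisons both aPD-L1 libraries were of low signal. In the comparison with R and NR averaged, the other side also held a low-signal library, R replicate 2. The part of signal in the 3 comparisons was not tested.

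The mean of R and NR against PTX called 0 members, against 0% of all probes and 7.15% at an unadjusted p under 0.05. No member separated these groups, while 9.92% of probes did. The median was 0.10 over the members and -0.05 over all probes. Bid was 401 ± 136 in the 6 R and NR libraries and 299.5 ± 50.1 in the PTX libraries, a log2 fold change of 0.42 (SE 0.35, adjusted p = 0.930, edgeR).

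**Figure D3:**
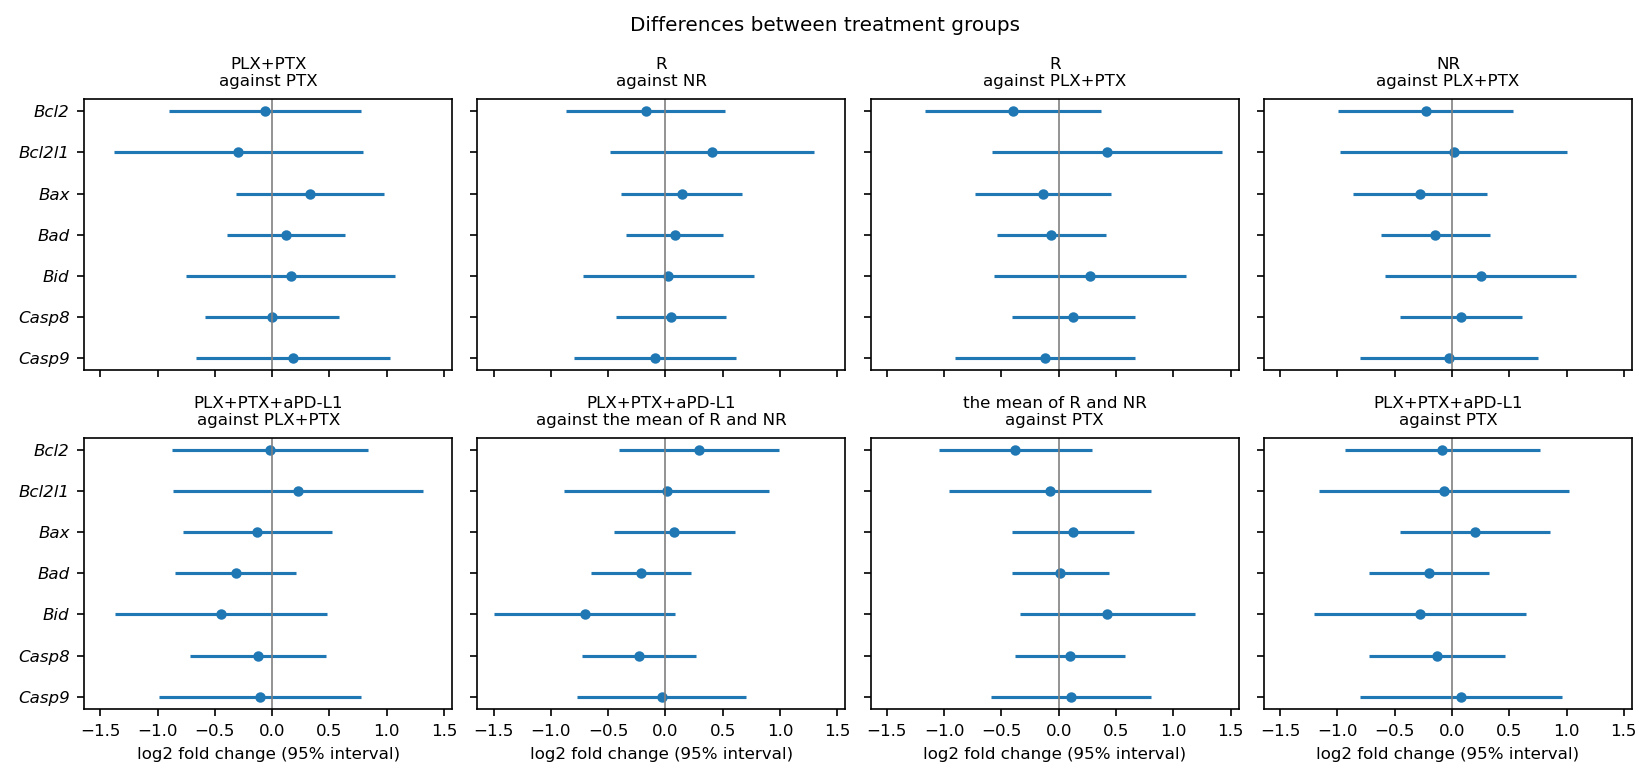
Log2 fold changes (horizontal axes) of the 7 tested genes in the 8 comparisons, with points for the edgeR estimate and lines for the 95% interval. Every interval crosses 0, and the one reaching furthest below 0 is Bid in the aPD-L1 group against R and NR averaged, from -1.50 to 0.08.

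Levels of several members varied together across libraries. Correlations are of log2 normalised counts over 12 libraries, which share scale factors and differ in depth, and are given as descriptions of 6 of 28 pairs that were chosen after their values were seen. Bcl2l1 and Bid ran in opposition (Pearson r = -0.82, Spearman rho = -0.93). Of the 9 pairs of libraries within a group, 9 ordered Bcl2l1 and Bid oppositely. Pairs within R and within NR share libraries, so the 9 pairs are not independent. The correlation of the deviations of Bcl2l1 and Bid from group means was -0.95. Their r was -0.87 without R replicate 2 and -0.90 over the 9 libraries of higher signal. Leaving out the libraries farthest from the median of Bcl2l1, R replicate 2 and PTX replicate 1, gave -0.87. It was weaker under other scalings, at -0.61 on total counts and -0.33 in the deposited log2 values, where 8 of 9 pairs within groups were still opposite.

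Bcl2l1 and Casp9 rose and fell together (r = 0.84, rho = 0.77), with the same order in 8 of 9 pairs within groups. Without R replicate 2 the correlation was 0.79, and in the deposited log2 values it was 0.58. Bcl2l1 and Bax ran in opposition (r = -0.76, rho = -0.64), less so without R replicate 2 (-0.51) or without R replicate 2 and PTX replicate 1 (-0.33). Bid and Casp8 ran together (r = 0.78, rho = 0.78), at 0.88 without R replicate 2 and 0.65 without NR replicate 3 and R replicate 3. Bcl2l1 and Casp8 depended on the scaling: r was -0.52 over 12 libraries and -0.86 without R replicate 2, but 0.0073 when libraries were scaled on total counts. Bid and Casp9, whose windows are printed above with those of Bcl2l1 and Casp8, ran in opposition (r = -0.74, rho = -0.77).

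**Figure D4:**
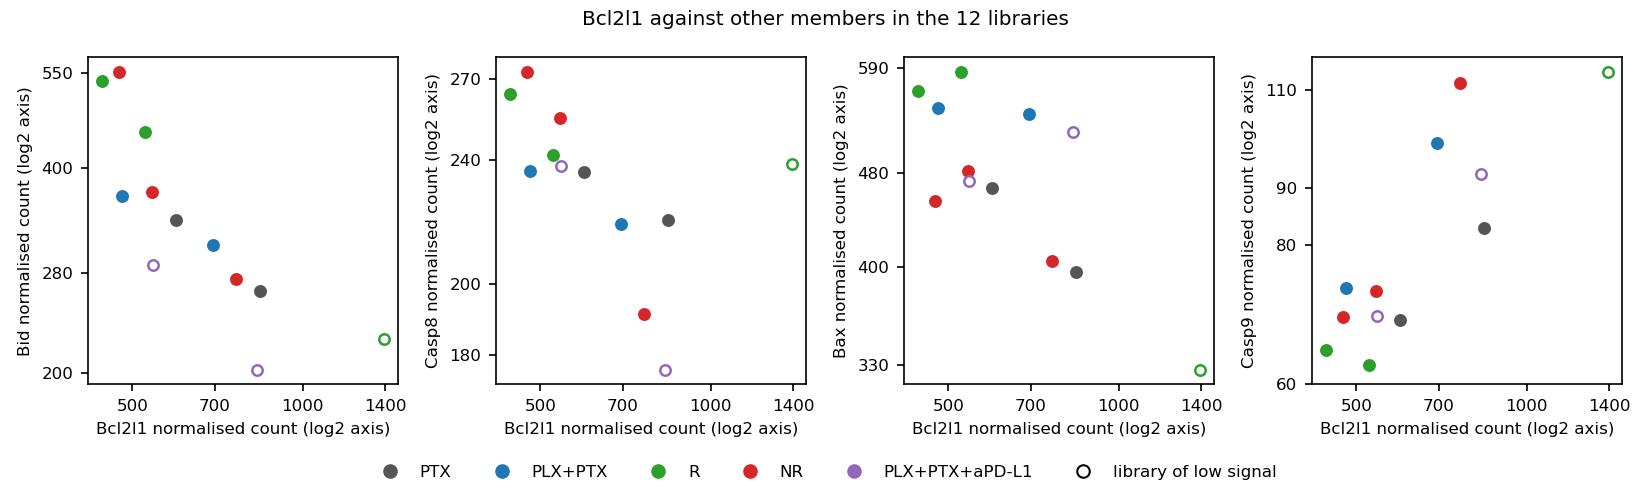
Normalised counts of Bid, Casp8, Bax and Casp9 (vertical log2 axes) against Bcl2l1 (horizontal log2 axis) in the 12 libraries, coloured by group, with open points for low-signal libraries. Bid falls as Bcl2l1 rises (r = -0.82) and Casp9 rises with it (r = 0.84); the point at 1393 is R replicate 2.

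The ratio of 2 probes within a library does not depend on the scaling. Bid over Bcl2l1 in raw counts was 0.314 and 0.561 in PTX, 0.443 and 0.758 in PLX+PTX, 0.855, 0.161 and 1.21 in R, 0.681, 0.360 and 1.17 in NR, and 0.529 and 0.243 in the aPD-L1 group. The lowest and the highest value of the series both lay in R. Bax over Bcl2, a ratio often used as an index of readiness for apoptosis, was 2.51 and 2.20 in PTX, 2.59 and 3.73 in PLX+PTX, 4.32, 2.10 and 5.02 in R, 4.68, 2.15 and 2.81 in NR, and 3.87 and 2.25 in the aPD-L1 group. Group means were 2.35 ± 0.216 in PTX, 3.16 ± 0.805 in PLX+PTX, 3.81 ± 1.52 in R, 3.22 ± 1.31 in NR and 3.06 ± 1.15 in the aPD-L1 group. Both PLX+PTX libraries lay above both PTX libraries by a small margin (2.59 against 2.51 at the nearest), and R, NR and the aPD-L1 group each overlapped them. Of single probes, 35.1% did not overlap between PLX+PTX and PTX, and the share of ratios that do not was not worked out. Casp8 over Casp9 ran from 1.71 in NR replicate 2 to 4.10 in R replicate 3. The size of a ratio also reflects probe efficiency, so only its change between libraries is read.

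**Figure D5:**
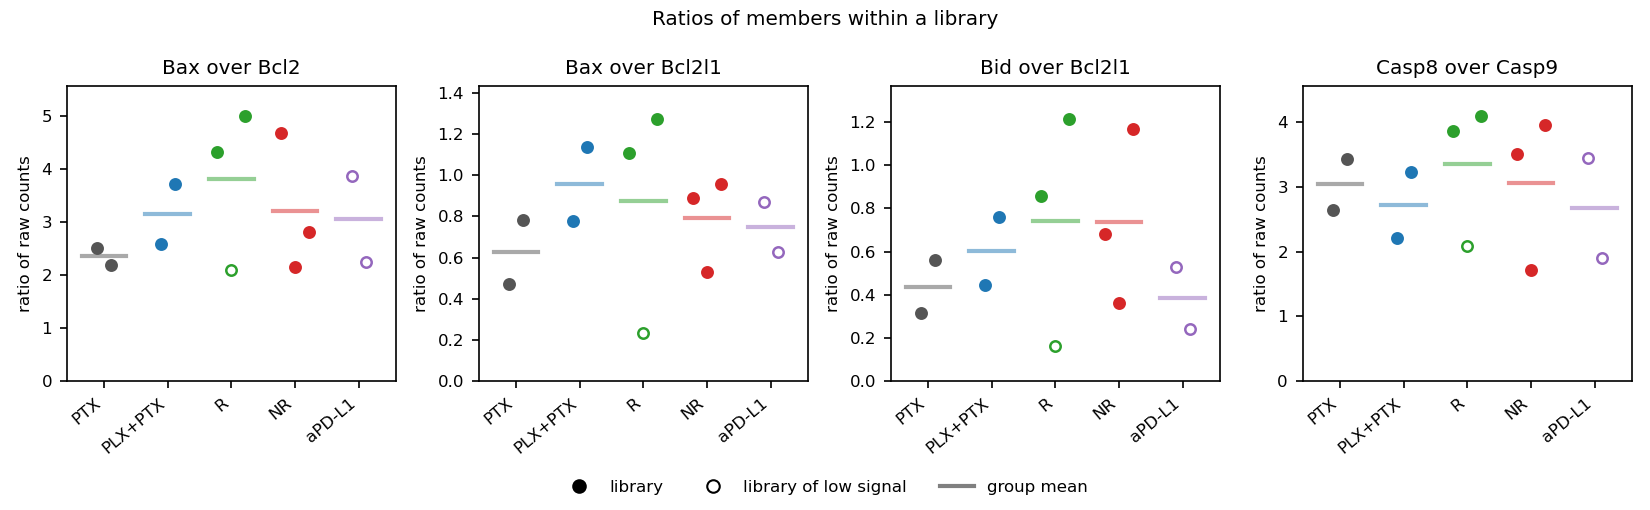
Ratios of raw counts of 2 members within a library (vertical axes, from 0) by group; points are libraries, bars are group means, open points are low-signal libraries, and aPD-L1 stands for PLX+PTX+aPD-L1. R spans the widest range of Bid over Bcl2l1, from 0.161 to 1.21.

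Other measures of the libraries moved with these genes, and their part in the patterns was not tested. S100a8, an alarmin abundant in neutrophils, was 3000 normalised counts in R replicate 2 and 1873 in NR replicate 2, the R and NR libraries with the highest Bcl2l1 and Casp9. In PTX it was also higher in the library with more Bcl2l1 and Casp9 (864 against 607). The order was opposite in PLX+PTX and in the aPD-L1 group. There PLX+PTX replicate 1 and aPD-L1 replicate 2 had more Bcl2l1 and Casp9 but less S100a8 (546 against 677, and 448 against 654). Of the 5 neutrophil markers on the panel, S100a8 was above the limit in 12 libraries, S100a9 in 5 and Csf3r in 1. The summed level of the 5 ran from 394 to 3071, and the defining markers Ly6g and Cxcr2 were above the limit in no library. By group that sum was 648 to 1007 in PTX, 593 to 721 in PLX+PTX, 490 to 3071 in R, 394 to 1920 in NR and 639 to 778 in the aPD-L1 group. Its log2 value correlated with Bcl2l1 at r = 0.82, with Casp9 at 0.78 and with Bax at -0.82. Without R replicate 2 these were 0.59, 0.68 and -0.63. Casp8 moved with the summed proliferation markers (r = 0.83, and 0.87 without R replicate 2), of which 8 of 13 on the panel were above the limit in all libraries and Ccnb1 in none. Their sum was 4988 to 5164 in PTX, 4876 to 6406 in PLX+PTX, 4960 to 7080 in R, 3758 to 7678 in NR and 3167 to 4515 in the aPD-L1 group. Casp8 was not alone in moving with this sum. Bid gave r = 0.48 over 12 libraries and 0.71 without R replicate 2. Bcl2l1 gave -0.17 and -0.70.

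The probes most like each member over 12 libraries were sought among the probes detected in at least 10 libraries, by Pearson r of log2 normalised counts. For Bcl2l1 they were Sbno2 (0.95), Nfkb1 (0.93) and Ikbkb (0.92), which were 0.95, 0.85 and 0.84 without R replicate 2. For Casp9 they were Nectin1 (0.90), Cdh1 (0.89) and Lif (0.88). For Casp8 they were Twf1 (0.89), Rrm2 (0.86) and Melk (0.86), and for Bid they were Twf1 (0.81), Casp8 (0.78) and Ube2c (0.78). For Bcl2 they were Prdm1 (0.82), Notch2 (0.82) and Maml2 (0.81). For Bax they were Ldhb (0.86), Hey1 (0.82) and Hdac11 (0.79), which were 0.71, 0.74 and 0.55 without R replicate 2. For Bad they were Tap1, Hk1 and Aldoa (0.79 each), at 0.63, 0.73 and 0.60 over the 9 libraries of higher signal. Each set is the highest 3 of 401 probes searched (402 for Bbc3), so its values are high by selection. Bbc3, which was above the limit in 0 of 12 libraries, lay nearest to Nos2 (0.90), Cxcl12 (0.82) and Il18r1 (0.81). Over the 9 libraries of higher signal these were 0.77, 0.17 and 0.57. Since Bbc3 could not be told from background, these correlations do not describe the Bbc3 transcript.

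Of the other apoptosis genes on the panel, 1 passed in 1 comparison. The mitophagy receptors Bnip3 and Bnip3l of the BCL2 family did not pass in any comparison, nor did the inflammatory Casp1. The panel held 2 of the 13 listed further family members. In the test of any difference the adjusted p was 0.858 for Bnip3, 0.876 for Bnip3l and 0.734 for Casp1 (edgeR). The caspase inhibitors Birc3 and Birc5 (survivin) did not pass either (adjusted p of any difference 0.919 and 0.578, edgeR), and Birc5 reached 2764 normalised counts at its highest. Of the p53 axis, Trp53, its inhibitor Mdm2, its target Cdkn1a and the kinase Atm did not pass, and the adjusted p of any difference was 0.697 for Cdkn1a, 0.773 for Trp53, 0.775 for Mdm2 and 0.990 for Atm (edgeR). Of the 9 listed genes of that axis 4 were on the panel.

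Of 8 tested genes for death receptors, ligands and adaptors, 1 rose in the aPD-L1 group against R and NR averaged, where 5.69% of probes were called. It was Tnfrsf1b, the TNF receptor 2, which has no death domain. Its normalised counts were 194 and 124 in the aPD-L1 group, 26.4, 61.1 and 30.8 in R, and 69.3, 41.7 and 106 in NR. Both aPD-L1 libraries lay above all 6 others, where 16.3% of all tested probes did not overlap. The log2 fold change was 1.61 (SE 0.38, adjusted p = 0.0236, edgeR), while in the test of any difference among the 5 groups Tnfrsf1b did not pass (adjusted p = 0.0974, edgeR). It ran from 1.13 to 2.03 over 21 alternative settings and passed in 13 of them, with adjusted p from 0.00325 to 0.186 (edgeR, DESeq2 or limma). It did not pass without R replicate 1, R replicate 3, NR replicate 1 or either aPD-L1 library, among probes detected in at least 10 libraries, after background subtraction or in the deposited log2 values. Some markers of other cell types passed as higher in the same comparison. They were Cd2 and Zap70 of 6 tested T cell markers and Kdr of 4 endothelial markers. Pdgfrb of 3 fibroblast markers and S100a9 of 2 neutrophil markers also passed. The other tested neutrophil marker, S100a8, did not rise: it was 654 and 448 in the aPD-L1 group, 441 to 3000 in R and 355 to 1873 in NR. The neutrophil sum was 639 to 778 in the aPD-L1 group, 490 to 3071 in R and 394 to 1920 in NR. The summed T cell markers were 277 to 390 normalised counts in the aPD-L1 group. They were 171 to 226 in R and 136 to 146 in NR, and Cd2, Cd3d, Cd8a and Cd8b1 were above the limit in no library. The sum covers 13 probes, and background was not subtracted from it. The scaled mean of the negative-control probes was 21.9 and 32.5 in the aPD-L1 group. It was 19.2 to 23.9 in R and 9.32 to 13.7 in NR. In both aPD-L1 libraries, 13 probes at that mean would sum to more than the T cell markers did. The T cell sum there could not be told from background, so no rise is read from it. The endothelial sum was 317 to 780.2 in the aPD-L1 group, 138 to 253 in R and 127 to 199 in NR. The fibroblast sum was 123 to 257 in the aPD-L1 group, 108 to 125 in R and 91.3 to 117 in NR. Other sums were lower in the aPD-L1 group. The macrophage and monocyte sum was 1461 to 1745 there, 1749 to 2564 in R and 2086 to 2586 in NR. The mammary epithelial sum was 5299 to 5487 there, 6324 to 8601 in R and 6115 to 7416 in NR. None of the 10 tested macrophage and 4 tested epithelial markers passed. Both aPD-L1 libraries were also of low signal. The part of these markers and of signal in the Tnfrsf1b result was not tested. Tnfrsf1a, which does carry a death domain, was 418 and 555 in the aPD-L1 group and 612 to 1109 in the other libraries. It did not pass (adjusted p of any difference 0.533, edgeR). The share of probes that set the aPD-L1 group apart from all other libraries was not worked out. The death receptor Tnfrsf10b did not pass either (0.773, edgeR).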

How the data were processed

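RNA of 12 MMTV-PyMT mammary tumour samples was measured on the nCounter panel, after conversion to cDNA and multiplex target enrichment per the labels' protocols. The deposited raw table holds counts of 784 probes (750 endogenous, 20 housekeeping, 6 positive and 8 negative controls, per the file headers), not normalised by the authors. The deposited processed table holds log2 values; how they were made is not given in any source used here, and DESeq2 and limma are tools named, without a role, per the submitters' processing notes.

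Each library was scaled by its housekeeping geometric mean (factors 0.346 to 1.80). The detection limit was the mean plus 2 SD of the negative controls (19.1 to 35.6 counts). The 615 endogenous probes that reached 20 raw counts in 2 libraries or more were tested (135 were left out) in one fit of 5 group means by edgeR's quasi-likelihood test (edgeR 4.0.16, R 4.3.3, 7 residual degrees of freedom), with Benjamini-Hochberg adjustment over all 615 and a threshold of 0.05. The procedure was tested on simulated data. Groups came from titles. No pair of libraries in a group matched within sampling noise (lowest chi-square per degree of freedom 15.9). Alternatives were other scalings, DESeq2 1.42.0, limma 3.58.1 (voom, and the deposited log2 values), other filters, background subtraction and leaving out libraries. Named genes were the 8 members, genes of 5 pathway lists past the threshold or among the 3 of smallest p per list in the test of any difference, and the 3 probes most correlated with each member; Atm and marker genes are named as list members. One gene that this rule names is not reported here. Members and lists were chosen with earlier results of these data known. Promoter windows are RefSeq's on GRCm38.p6, for 8 of 8 members.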

Additional observations from a re-analysis of the deposited data

How the results depend on the processing

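No member passed the threshold under any alternative: 195 of 195 counts of members called were 0. Of the 56 fold changes, 17 kept their direction under every setting and 39 turned under at least 1. Counts over all probes moved more. R against NR had 3 calls in the deposited log2 values and 0 otherwise. The aPD-L1 group against PLX+PTX had 14, with 26 by the DESeq2 test, 0 among the probes detected in at least 10 libraries and 0 in the deposited log2 values. With libraries left out in turn it had 0 (without PLX+PTX replicate 2) to 18, and 3 without PLX+PTX replicate 1. The aPD-L1 group against R and NR averaged had 35, with 55 unfiltered, 4 among detected probes, 23 after background subtraction and 54 in the deposited values. It had 16 without aPD-L1 replicate 2 and 53 without replicate 1. The mean of R and NR against PTX had 0, and 0 to 6 with libraries left out, the 6 without PTX replicate 2. The aPD-L1 group against PTX had 20, with 31 by TMM scaling, 33 by the DESeq2 test, 31 unfiltered, 0 among detected probes, 5 after background subtraction and 50 in the deposited values. With libraries left out it had 2 (without PTX replicate 1) to 28, with 7 without PTX replicate 2 and 12 without aPD-L1 replicate 2. The test of any difference had 18, with 40 by DESeq2 and 0 among detected probes. Without the 3 low-signal libraries it had 0, but the aPD-L1 group is then gone and 4 groups are compared, so this is a different test. With single libraries left out, the test over all 5 groups had 8 (without aPD-L1 replicate 2) to 21. The causes were not tested. The correlation of Bcl2l1 with Casp8 turned from -0.52 to 0.0073 on total-count scaling. TMM scaling moved the median of all probes by -0.13 in R against NR and by 0.20 in NR against PLX+PTX. Where a group of 2 lost a library, the lone one was assumed to vary like the other groups. No paired analysis was possible because replicate numbers follow the order of deposition and pair no samples. Groups of 2 and 3 libraries and low signal in 3 libraries limit the precision, and Bbc3 lay at background.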
